A study of Mus musculus with 12 samples.

Results

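The transcripts described here encode the vacuolar proton pump of the lysosome, its 2 accessory proteins, the cathepsins and the lysosome-associated membrane proteins Lamp1 and Lamp2. The members were taken by name from the protein coding genes of the expression file, namely all genes whose symbol begins with Atp6v0 or Atp6v1, together with Atp6ap1, Atp6ap2, the cathepsins with a single letter (Ctsa to Ctsz), Lamp1 and Lamp2. This rule used no measured value and gave 44 of 22058 protein coding genes, or 44 of 54345 genes in the file. Tcirg1, which encodes a further isoform of pump subunit a, carries a name outside the rule and is described with the other lysosomal genes.

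The 12 poly(A) libraries came from H9c2 cells in 4 groups of 3, all harvested after 6 h. Cells of the Unt group were untreated, cells of the DOX group received doxorubicin, the anthracycline whose toxicity to the heart the study addresses, cells of the D_DXZ group received doxorubicin with dexrazoxane, an iron chelating cardioprotective drug, and cells of the D_MgHCF group received doxorubicin with nanocatalysts of magnesium hexacyanoferrate. The doses in the sequenced cells are not given in the sources used here, and no group received dexrazoxane or the nanocatalysts without doxorubicin. Nothing states that the 3 libraries of a group came from separate cultures, so the p-values below measure only the spread between these libraries.

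H9c2 is an established line of embryonic rat heart myoblasts, a dividing cell that is not a contracting cardiomyocyte. The sample labels give the organism as mouse, and the deposited values are on mouse genes (build GRCm38), so that a level also depends on how closely the sequence of the cells matches each mouse gene. Of 9 markers of myoblasts and smooth muscle, 3 had a mean of at least 1 FPKM in Unt cells (Vim, Acta2 and Des), while Myod1 and Myog were at 0 in all 3 Unt libraries. None of 5 markers of mature cardiomyocytes reached a mean of 1 FPKM in any group. The summed level of the myoblast markers was 484 to 593 FPKM in Unt, 2355 to 3171 for DOX, 1921 to 2591 for D_DXZ and 304 to 598 for D_MgHCF. Nearly all of this sum was Vim and Acta2, so it does not describe the list as a whole. Des went the other way, from 1.57, 1.36 and 1.46 FPKM in Unt to 0.491, 0.498 and 0.668 FPKM in DOX. Actc1, Acta1, Tagln and Tnnt2 were under 1 FPKM in every Unt library. Of 6 macrophage markers only Cd68, itself a lysosomal membrane protein, reached 1 FPKM. The summed level of that list was 1.04 to 1.23 FPKM in Unt, 3.16 to 3.85 for DOX, 4.15 to 4.73 for D_DXZ and 2.04 to 5.64 for D_MgHCF, with Adgre1 and Itgam at 0 in Unt, DOX and D_DXZ. The part of either marker list in the results was not tested. These are bulk samples, so fewer cells of a type and less RNA per cell cannot be told apart.

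Lysosomes break down proteins, lipids and sugars delivered by endocytosis and autophagy, and the vacuolar ATPase keeps their lumen acid. Its soluble V1 sector hydrolyses ATP, its membrane-bound V0 sector carries protons across the membrane, and the accessory proteins Atp6ap1 and Atp6ap2 help to assemble the complex. Cathepsins are the proteases that work in this acid lumen, and Lamp1 and Lamp2 are the main glycoproteins of the lysosomal membrane. Many of these genes carry a short palindrome, CACGTG, near their start that transcription factors of the TFEB family can bind, and doxorubicin is known to disturb lysosomal acidity and autophagy in heart cells.

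Each library held between 16626514 and 19365119 recovered gene reads, so the depths were alike. FPKM, fragments per length of gene and number of reads, was deposited with an additional factor for each library, and the sum over all protein coding genes was not equal between groups. Relative to the mean of Unt, this sum was 2.29 in DOX, 1.97 in D_DXZ and 1.07 in D_MgHCF. A gene that keeps its share of the coding transcripts therefore appears higher in DOX than in Unt in the deposited values. The counts of members in each comparison are given on the deposited values and, beside them, with each library scaled to an equal sum over protein coding genes. A difference without a named scaling is on the deposited values, and which of the 2 scales is nearer to the RNA content per cell cannot be told apart here. Library 3 of D_MgHCF stood apart. The correlations between the 3 D_MgHCF libraries ranged from 0.942 to 0.984, while no pair within another group was under 0.9895.

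Of the 44 members, 36 passed the filter for testing (FPKM above 0 in at least 3 libraries) and 27 had a mean of at least 1 FPKM over the 12 libraries. The sequence around the annotated start was at hand for 21 of these 27 genes, from RefSeq on build GRCm38.p6, as windows of 300 bases (250 before and 50 from the start on). The letters CACGTG, which read the same on both strands, were found in the windows of 8 of the 21 genes (Atp6v0b, Atp6v0d1, Atp6v0e, Atp6v1a, Ctsa, Ctsd, Ctsl and Lamp1). Counted by window, 32% of 25 member windows held them, against 7.15% of 32851 windows of all genes and 10.5% of the windows of protein coding genes with a mean of at least 1 FPKM. Among 29 windows of other lysosomal hydrolases, a list described below, the share was 24.1%. The longer palindrome TCACGTGA, which contains CACGTG, was present for 5 of the 21 genes (Atp6v0d1, Atp6v0e, Atp6v1a, Ctsa and Ctsd). It was in 20% of the member windows, 0.974% of all windows and 1.99% of the windows of protein coding genes with a mean of at least 1 FPKM. The stretch from 120 bases before to 29 bases after the start is shown for 5 of these promoters, from the V0 sector, the aspartic and serine cathepsins and the LAMPs, and for Atp6ap2, the member with the largest difference between DOX and Unt, whose window held no match. Capitals mark CACGTG, and each line is written in the direction of transcription.
Lamp1 (chr8:13159041-13159190, plus strand): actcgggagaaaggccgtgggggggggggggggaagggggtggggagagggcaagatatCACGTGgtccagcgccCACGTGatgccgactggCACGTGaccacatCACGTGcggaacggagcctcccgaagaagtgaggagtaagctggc
Ctsd (chr7:142387798-142387947, minus strand): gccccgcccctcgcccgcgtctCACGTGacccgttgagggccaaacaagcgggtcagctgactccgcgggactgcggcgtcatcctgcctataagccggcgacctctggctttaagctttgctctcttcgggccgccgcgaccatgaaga
Ctsa (chr2:164833653-164833802, plus strand): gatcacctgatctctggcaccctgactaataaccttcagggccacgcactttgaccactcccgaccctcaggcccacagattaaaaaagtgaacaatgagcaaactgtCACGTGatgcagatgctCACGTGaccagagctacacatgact
Atp6v0d1 (chr8:105566035-105566184, minus strand): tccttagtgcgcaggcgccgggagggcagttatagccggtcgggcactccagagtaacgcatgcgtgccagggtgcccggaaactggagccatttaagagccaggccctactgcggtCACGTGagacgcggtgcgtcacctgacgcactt
Atp6v0e (chr17:26676276-26676425, plus strand): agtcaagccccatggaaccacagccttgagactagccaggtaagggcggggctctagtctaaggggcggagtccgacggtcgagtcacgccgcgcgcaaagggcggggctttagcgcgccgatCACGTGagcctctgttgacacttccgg
Atp6ap2 (chrX:12587639-12587788, plus strand): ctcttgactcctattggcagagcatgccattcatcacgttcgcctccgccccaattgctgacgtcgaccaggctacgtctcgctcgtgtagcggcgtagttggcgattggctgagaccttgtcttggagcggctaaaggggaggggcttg
Lamp1 carried 4 copies within this stretch, beginning 61, 45, 28 and 15 bases before the start, and none of them was part of the longer palindrome. Ctsa carried 2 copies, both within TCACGTGA. Its other window (chr2:164832622-164832921), around an annotated start further upstream, held none. A match in these letters is a description of the mouse sequence and shows no binding, and the letters not being found in a window says nothing about other sites.

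In untreated cells Lamp1 and the main proteases were among the most abundant members. Lamp1 was measured at 147, 154 and 163 FPKM in the 3 Unt libraries. Ctsd, an aspartic protease, was at 66.9, 70.8 and 74.3 FPKM, and Ctsb, a cysteine protease, was at 62.9, 62.4 and 64.0 FPKM. The Unt libraries lay close together for each of these genes. Of the pump, Atp6v1g1, a stalk subunit of V1, was highest at 90.5, 84.5 and 89.8 FPKM, and Atp6v0d1, which joins V0 to the stalk, was the most abundant V0 transcript over the 12 libraries at 30.4, 28.9 and 32.6 FPKM in Unt. FPKM is per length of gene, so these levels can be set side by side, within the limit that the cells were matched to mouse genes.

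Several members of the families were not detected. No reads were found in any library for 7 genes (Atp6v0d2, Atp6v1g3, Ctsg, Ctsj, Ctsm, Ctsq and Ctsr), which at 3 reads allows levels of up to 0.0434 to 0.251 FPKM, depending on gene and library and for counting error only. These include isoforms known from osteoclasts and kidney (Atp6v0d2, Atp6v1g3), a protease of neutrophil granules (Ctsg) and cathepsins of the rodent placenta. Atp6v1e2, the testis form of subunit E, had 1 read in all. Ctse, Ctsh and Ctss, which are rich in immune and epithelial cells, had 4, 6 and 11 reads over the 12 libraries.

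**Figure D1:**
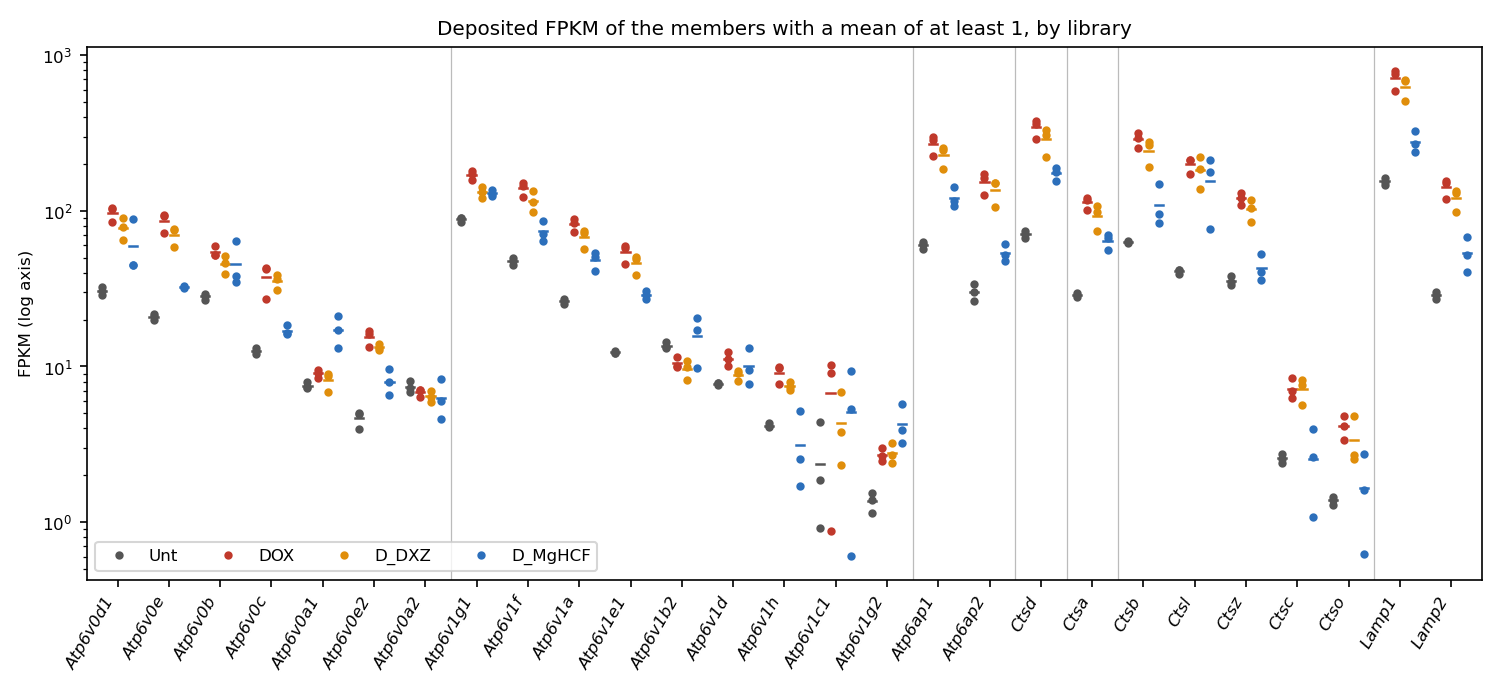
Deposited FPKM (log axis) of the 27 members with a mean of at least 1 FPKM, 4 groups per gene in the order Unt, DOX, D_DXZ and D_MgHCF, with a point for each library and a bar at the group mean. Vertical lines divide, from left to right, V0, V1, accessory proteins, the aspartic, serine and cysteine cathepsins, and the LAMPs. The DOX points lie above the Unt points for most genes, but not for Atp6v1b2 and Atp6v0a2, and the points of Atp6v1c1 spread widely within groups.

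The comparison of DOX with Unt asks how doxorubicin affected these genes. On the deposited values 25 of 36 members were higher and none was lower at an adjusted p under 0.05 (limma on log2(FPKM + 1)), against 18.6% of 25044 genes tested that were higher and 19.9% that were lower. By class, 6 of 8 V0 members, 8 of 11 V1 members, both accessory genes, 7 of 13 cathepsins and both LAMPs rose. The median difference of the 27 members with a mean of at least 1 FPKM was 1.55 on the log2 scale. This has to be read beside the abundance of the members, since among 4211 protein coding genes with a mean of at least 10 FPKM 63.6% were higher, with a median of 0.85. With an equal coding sum, 15 members were higher and 5 lower, beside 5.97% of all genes called higher and 36.9% called lower. The median over all genes with a mean of at least 1 FPKM moved from 0.05 on the deposited values to -0.80.

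Both accessory genes rose. Atp6ap2, which showed the largest rise of all members and is also known as the prorenin receptor, was at 33.9, 29.9 and 26.5 FPKM in Unt and at 126, 163 and 172 FPKM in DOX. Every DOX library was above every Unt library, with a log2 difference of 2.31 ± 0.18 (SE, n = 3 per group, limma adjusted p = 1.17e-05). Atp6ap1, which accompanies the pump through the secretory pathway, was at 56.6, 61.5 and 63.0 FPKM in Unt and 224, 285 and 299.8 FPKM in DOX, a log2 difference of 2.13 ± 0.16. The groups of this gene did not overlap either. The differences were smaller but still called with an equal coding sum, at 1.13 for Atp6ap2 and 0.95 for Atp6ap1.

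Both LAMPs rose together. In DOX, Lamp1 was measured at 590.0, 753 and 788 FPKM, and its log2 difference from Unt was 2.18 ± 0.18. Lamp2, whose splice form A takes part in chaperone-mediated autophagy, was at 30.2, 28.9 and 27.1 FPKM in Unt and 119, 151 and 156 FPKM in DOX, a log2 difference of 2.26 ± 0.19. None of the DOX libraries of these genes reached down to the Unt range. The file gives 1 value per gene, so the splice forms of Lamp2 could not be separated. Lamp1 made up 84.3 ± 1.4% of the summed LAMP transcripts in Unt and 83.3 ± 0.17% in DOX (SD, n = 3), and these ranges overlapped. The log2 differences with an equal coding sum were 0.99 for Lamp1 and 1.08 for Lamp2.

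Among the cathepsins the abundant proteases rose by similar amounts. Ctsd was at 290.5, 359.9 and 379 FPKM in DOX, a log2 difference of 2.25 ± 0.17. Ctsl, a cysteine endopeptidase, went from 41.7, 41.6 and 39.4 FPKM in Unt to 173, 212 and 213 FPKM in DOX, a log2 difference of 2.25 ± 0.32. Ctsb was at 255, 294 and 318 FPKM in DOX, a log2 difference of 2.17 ± 0.21. For these 3 proteases every DOX library lay above the Unt libraries, and the rise was called with both scalings. Ctsa, a serine carboxypeptidase that also protects neuraminidase and beta-galactosidase, went from 28.9, 28.1 and 29.6 FPKM to 102, 117 and 121 FPKM, a log2 difference of 1.93 ± 0.14. Ctsz, a carboxypeptidase, was at 34.9, 33.4 and 37.9 FPKM in Unt and 109, 122 and 131 FPKM in DOX, a log2 difference of 1.74 ± 0.16. The groups did not overlap for either gene, and both were still called with an equal coding sum, at 0.76 and 0.56. The less abundant Ctsc, which activates granule proteases, and Ctso were called on the deposited values at 1.197 and 1.10, while with an equal coding sum they were at 0.22 and 0.23 (adjusted p = 0.538 and 0.542, limma). Exons of Ctsb, Ctsa and Lamp1 overlap those of a neighbour on the opposite strand (Fdft1, Pltp with Neurl2, and Grtp1), and no source used here states that reads were assigned by strand. The mean level of these neighbours was between 1.10 and 13.6 FPKM.

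Within the pump the subunits differed. Atp6v1e1, of the peripheral stalk, showed the largest rise of V1, from 12.2, 12.6 and 12.1 FPKM in Unt to 45.2, 59.2 and 57.5 FPKM in DOX, a log2 difference of 2.04 ± 0.12. Atp6v0e, a small V0 subunit, rose by 1.99 ± 0.12, from a mean of 20.9 to 86.5 FPKM. Atp6v1a, the catalytic subunit A that binds ATP, rose from 27.2, 26.4 and 25.1 to 72.8, 83.7 and 88.8 FPKM, a log2 difference of 1.60 ± 0.13. Atp6v0d1 reached 85.3, 102 and 104 FPKM in DOX, a log2 difference of 1.63 ± 0.23. The libraries of the groups were apart for all 4 genes. The first 3 were still called with an equal coding sum (0.88, 0.82 and 0.43), while Atp6v0d1 was at 0.45 with an adjusted p of 0.196 (limma).

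Other subunits were not called on the deposited values. Atp6v1b2, the B subunit that alternates with subunit A in the V1 ring, was at 13.2, 13.1 and 14.3 FPKM in Unt and 10.1, 11.4 and 9.92 FPKM in DOX. The log2 difference was -0.34 ± 0.21 with an adjusted p of 0.269 (limma), although the DOX libraries all lay under the Unt libraries. Atp6v0a1, a V0 isoform of subunit a that is prominent in neurons, was at 7.26, 7.33 and 7.94 FPKM in Unt and 9.53, 9.13 and 8.40 FPKM in DOX, a log2 difference of 0.23 ± 0.15 (adjusted p = 0.3, limma). Its isoform Atp6v0a2, found on the Golgi, was at 6.83, 7.26 and 8.03 FPKM in Unt and 6.38, 7.08 and 7.04 FPKM in DOX, and these libraries overlapped. All 3 were called lower in DOX with an equal coding sum, at -1.38, -0.78 and -1.07. Atp6v1d and Atp6v1g1 were called higher on the deposited values, at 0.48 and 0.95, and lower with an equal coding sum, at -0.57 and -0.24. Atp6v1c1, which encodes subunit C, was at 4.37, 1.85 and 0.913 FPKM in Unt and 0.882, 10.3 and 9.07 FPKM in DOX. The libraries of both groups were far apart from each other, and no difference in Atp6v1c1 was called in any of the 6 comparisons with either scaling.

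The value of Atp6v0c, the proton-carrying ring subunit, is uncertain. It was listed at 12.0, 13.2 and 12.6 FPKM in Unt and 27.0, 42.7 and 42.6 FPKM in DOX, a log2 difference of 1.47 ± 0.16, and of 0.33 with an equal coding sum. A processed pseudogene listed as Gm15487 (chr6:37806086-37806550) is 99.785% identical to it over 465 bases. This row held 46.6 to 50.2% of the reads of the pair in Unt, 52.8 to 58.7% for DOX, 52.1 to 55.9% for D_DXZ and 56.6 to 63.2% for D_MgHCF. The reads of the 2 rows cannot be told apart in this file. With both added, the log2 difference between DOX and Unt was 1.76.

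**Figure D2:**
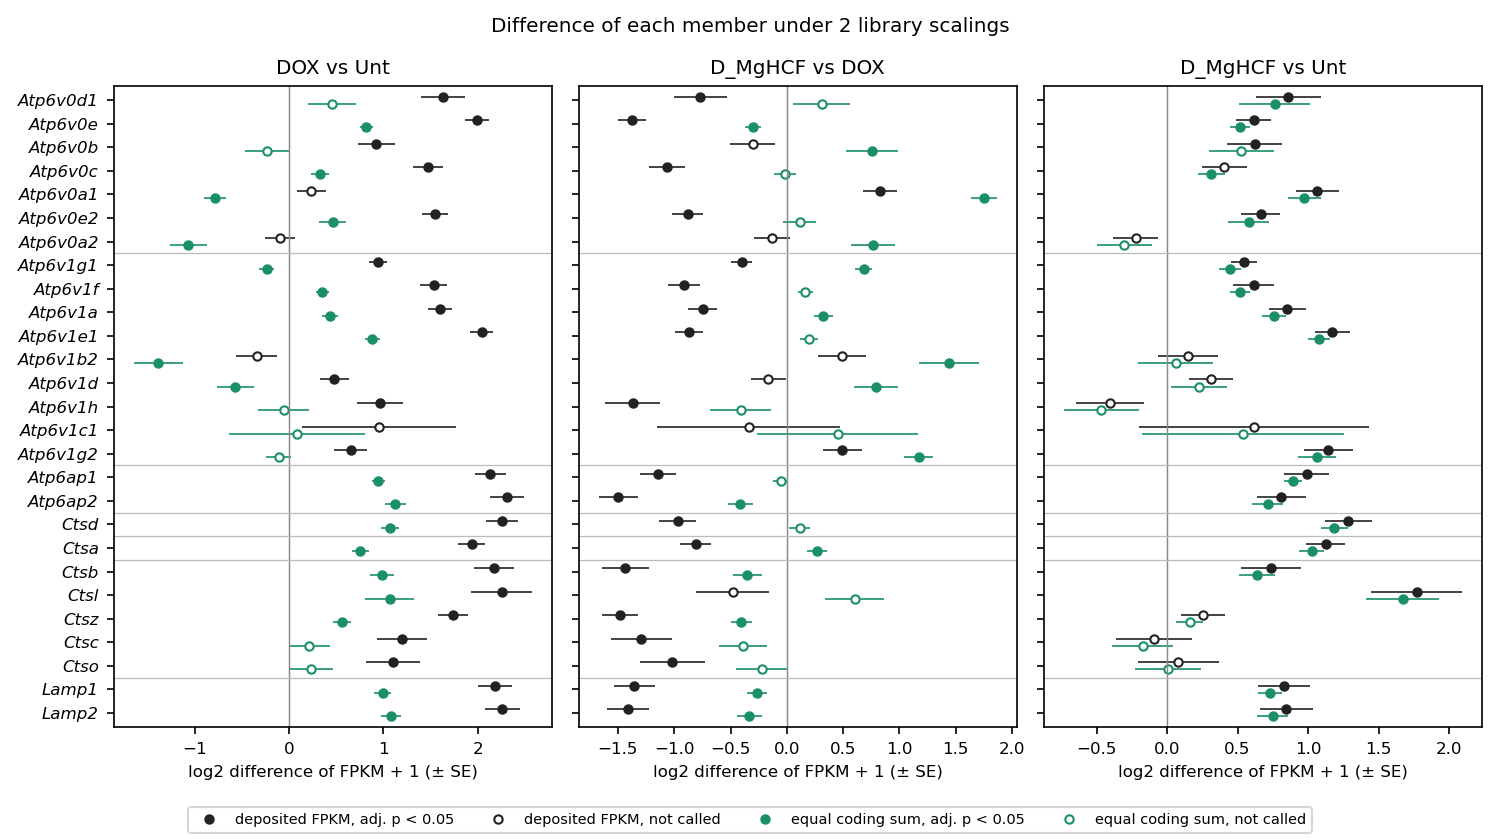
Difference in log2(FPKM + 1) of the 27 members with a mean of at least 1 FPKM for DOX against Unt, D_MgHCF against DOX and D_MgHCF against Unt, with bars of 1 standard error from limma (3 libraries per group). Black points are deposited values and green points values with an equal sum over protein coding genes, filled where the adjusted p was under 0.05. Black and green lie apart in the left and middle panels and close together in the right panel, where no member was called lower with either scaling.

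The comparison of D_MgHCF with Unt sets the cells treated with doxorubicin and the nanocatalysts against untreated cells, and here the coding sums were nearly equal. On the deposited values 21 of 36 members were higher and none was lower, against 24.3% of all genes that were higher and 15.7% that were lower. After scaling to an equal coding sum 22 members were higher and none was lower, against 27.4% and 19.2% of all genes. The classes were 6 of 8 V0 members, 6 of 11 V1 members, both accessory genes, 5 of 13 cathepsins and both LAMPs on the deposited values. Of the 27 members with a mean of at least 1 FPKM 66.7% were higher, against 23.6% of protein coding genes with a mean of at least 10 FPKM. The median difference of these 27 members was 0.66, beside -0.06 for those abundant coding genes. Without library 3, 20 members were higher and 2 lower. Under the 4 scalings run (deposited, TPM, equal coding sum and quantile normalization), 18 members were called higher in each and none lower in any.

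Cathepsins L and D were the furthest above Unt in this comparison. Ctsl was at 211, 177 and 76.0 FPKM in D_MgHCF, a log2 difference from Unt of 1.77 ± 0.32 (adjusted p = 0.002, limma). All 3 libraries were above Unt, but library 3 was far below the other two, and without it the difference was 2.21 ± 0.18. Ctsd was at 189.5, 155 and 178 FPKM, a log2 difference of 1.28 ± 0.17, and 1.27 without library 3. Ctsa, at 70.1, 56.3 and 66.5 FPKM, was higher by 1.12 ± 0.14. Ctsb, at 148, 94.8 and 84.0 FPKM, was higher by 0.74 ± 0.21 with an adjusted p of 0.019 (limma), a call that was lost without Unt library 1 (0.0537) or 2 (0.0552), with no filter (0.054) and in a fit of the 2 groups only (0.0618). The groups did not overlap for any of these 4 proteases. Ctsz, Ctsc and Ctso were not called, with values of 0.26, -0.09 and 0.08. Their D_MgHCF libraries overlapped the Unt libraries.

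Of the 19 pump genes tested, 12 were called above Unt and 7 were not called. Atp6v1e1 was at 28.9, 30.7 and 27.3 FPKM in D_MgHCF, a log2 difference of 1.17 ± 0.12. Atp6v0a1 was at 21.1, 17.0 and 13.1 FPKM, a log2 difference of 1.06 ± 0.15, and this isoform had not been called in DOX on the deposited values. Atp6v1g2, the G isoform of neurons, was at 1.39, 1.15 and 1.53 FPKM in Unt and 5.71, 3.93 and 3.25 FPKM in D_MgHCF, a log2 difference of 1.14 ± 0.17. For each of these genes the lowest D_MgHCF library was above the highest Unt library. Part of an exon of Atp6v1g2 is shared with Nfkbil1 on the opposite strand, at a mean level of 5.93 FPKM. Atp6v0d1, at 45.1, 45.0 and 88.3 FPKM, was higher by 0.86 ± 0.23, and by 0.54 ± 0.13 without library 3, and the call was lost without Unt library 2 (adjusted p = 0.0509, limma) and in a fit of the 2 groups only (0.071). The level in library 3 was within the DOX range. Atp6v1a and Atp6v1g1 were higher by 0.85 ± 0.13 and 0.54 ± 0.09.

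Atp6v1h, which couples ATP hydrolysis to proton transport, differed between the D_MgHCF libraries. It was at 4.09, 4.30 and 4.14 FPKM in Unt and at 1.71, 2.55 and 5.17 FPKM in D_MgHCF, a log2 difference of -0.41 ± 0.24 (adjusted p = 0.205, limma). D_MgHCF libraries 1 and 2 were below Unt and library 3 was above it, and without library 3 the gene was called lower at -0.74 ± 0.13. Atp6v0a2 was also called lower without that library, at -0.41, which makes up the 2 lower members without it. Atp6ap1, Atp6ap2, Lamp1 and Lamp2 were at 122, 53.6, 278 and 53.5 FPKM on average in D_MgHCF. Their log2 differences from Unt were 0.99, 0.81, 0.83 and 0.84, each called with both scalings.

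The comparison of D_MgHCF with DOX asks what the nanocatalysts changed in cells exposed to doxorubicin. On the deposited values 19 of 36 members were lower and 2 were higher, against 20.1% of all genes that were lower and 31.4% that were higher. Abundant genes were mostly lower here, with 65.7% of protein coding genes with a mean of at least 10 FPKM lower and a median of -0.93, beside -0.88 for the 27 members with a mean of at least 1 FPKM. Without library 3, 22 were lower and 4 higher. Scaled to an equal coding sum, the counts turned to 6 lower and 13 higher, against 7.99% and 50.7% of all genes, and the median of all genes with a mean of at least 1 FPKM moved from -0.09 to 0.69. Under the 4 scalings, 7 members were called in both directions, among them Ctsd, Ctsa and Atp6ap1. The share of all genes called in both directions was not counted. Ctsz was called lower in all 4 and Atp6v0a1 was called higher in all 4.

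Ctsz was at 52.9, 35.8 and 40.2 FPKM in D_MgHCF, so that every library was below the DOX range of 109 to 131 FPKM. Its log2 difference from DOX was -1.48 ± 0.16, and -0.40 with an equal coding sum. As a share of all cathepsin transcripts, a measure on which the scaling of the libraries has no bearing, Ctsz was at 14.5 ± 0.64% in Unt, 11.2 ± 0.38% in DOX and 7.86 ± 1.09% in D_MgHCF (SD, n = 3), with no overlap between these groups. Exact two-sided permutation tests of such shares cannot go below p = 0.1 with 3 libraries per group, and the adjusted p over 102 share comparisons was 0.204. The order of the shares is therefore a description of these libraries that no test here could call.

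The accessory genes and both LAMPs fell on the deposited values. Atp6ap2 was at 61.6, 51.7 and 47.6 FPKM in D_MgHCF, a log2 difference from DOX of -1.50 ± 0.18. Lamp2, at 67.8, 52.0 and 40.5 FPKM, differed by -1.41 ± 0.19, and Lamp1, at 327, 238 and 267 FPKM, by -1.35 ± 0.18. No D_MgHCF library of these genes reached the DOX range. With an equal coding sum the differences were -0.41, -0.33 and -0.26 and still called, while under TPM only that of Atp6ap2 was called among the 3 and under quantile normalization none was. Ctsb differed by -1.44 ± 0.21, and by -0.35 with an equal coding sum. The call of Ctsb was lost under TPM (-0.22) and quantile normalization (-0.002). Ctsl was not called with either scaling, at -0.48 and 0.60, and its libraries overlapped those of DOX. Without library 3 its difference on the deposited values was -0.04.

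Atp6v0a1 was the member that rose most. Its 3 D_MgHCF libraries lay above the highest DOX library of 9.53 FPKM, with a log2 difference from DOX of 0.83 ± 0.15 (adjusted p = 0.00117, limma) and of 1.75 with an equal coding sum. Without library 3 the difference on the deposited values was 1.00 ± 0.12. Atp6v1g2 was also called, at 0.49 ± 0.17 with an adjusted p of 0.0359 (limma), but its call was lost without Unt library 1, without any of the 3 DOX libraries, without D_DXZ library 3 and without D_MgHCF library 1 or 2, with adjusted p from 0.0501 to 0.11 (limma). It was also lost with the replicate block (0.0594), with voom (0.056), with no filter (0.0649), in a fit of the 2 groups only (0.117) and with quantile normalization (0.57). Atp6v1b2 was at 9.74, 17.2 and 20.48 FPKM in D_MgHCF, a log2 difference from DOX of 0.49 ± 0.21 that was not called on the deposited values and of 1.44 that was called with an equal coding sum.

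The comparison of D_DXZ with DOX shows what dexrazoxane changed under the same exposure. No member and none of 25044 genes was called at an adjusted p under 0.05 (limma), which is 0% of the genes in either direction. At an unadjusted p under 0.05, 2 members were lower and none was higher, against 4.97% of all genes lower and 4.56% higher. The 2 members were Atp6v1g1, at 120.4, 143 and 132 FPKM in D_DXZ and 159, 181 and 173 FPKM in DOX, and Atp6v0e. The log2 difference of Atp6v1g1 was -0.37 ± 0.09 (unadjusted p = 0.00252 and adjusted p = 0.278, limma), and the D_DXZ libraries lay below the DOX libraries. The median difference over the 27 members with a mean of at least 1 FPKM was -0.25 on the deposited values and -0.03 with an equal coding sum. With voom on the recovered reads, no member and no gene was called either.

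The comparison of D_DXZ with Unt used the same 3 Unt libraries as that of DOX. Here 22 members were higher and none was lower, against 15.9% of all genes higher and 18.0% lower. With an equal coding sum 15 were higher and 5 lower, against 5.51% and 35.4% of all genes. The coding sum of D_DXZ was 1.97 relative to Unt. As for DOX, the counts on the deposited values have to be read beside the abundance of the members. Atp6ap2, at 105, 151 and 150.1 FPKM in D_DXZ, showed the largest difference from Unt at 2.12 ± 0.18. Ctsl, at 138, 223 and 186 FPKM, differed by 2.10 ± 0.32, and Lamp2, at 98.3, 134 and 129.8 FPKM, by 2.02 ± 0.19. The groups did not overlap for these 3 genes, which were also called with an equal coding sum, at 1.16, 1.14 and 1.06. Atp6v1b2 was at 9.95, 8.24 and 10.8 FPKM in D_DXZ, below Unt in each library, with a difference of -0.45 ± 0.21 that was not called on the deposited values and of -1.30 that was called with an equal coding sum.

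In the direct comparison of the 2 co-treatments, D_MgHCF against D_DXZ, 16 members were lower and 3 higher on the deposited values, against 19.0% of all genes lower and 29.4% higher. With an equal coding sum 5 were lower and 15 higher, against 8.23% and 46.8% of all genes. The coding sum relative to Unt was 1.07 in D_MgHCF and 1.97 in D_DXZ, and the counts on the deposited values have to be read beside it. The members higher on the deposited values were Atp6v0a1 (0.96 ± 0.15), Atp6v1b2 (0.60 ± 0.21) and Atp6v1g2 (0.47 ± 0.17). Atp6v0a1 and Atp6v1b2 were called higher under all 4 scalings, but on the deposited values the call of Atp6v1b2 was kept only when D_MgHCF library 1 was the one left out (adjusted p from 0.0510 to 0.124 without any other library, limma). The call of Atp6v1g2 was lost with the replicate block (adjusted p = 0.0727), with voom (0.0635), with quantile normalization (0.434) and without any 1 library other than D_DXZ library 2 or D_MgHCF library 3 (0.0585 to 0.14, limma). Without library 3 of D_MgHCF, 18 members were lower and 4 higher. The 3 largest falls were those of Atp6ap2 (-1.31 ± 0.18), Ctsc (-1.28 ± 0.27) and Ctsz (-1.24 ± 0.16). Scaled to an equal coding sum they were -0.45, -0.55 and -0.38, and the call of Ctsc was lost (adjusted p = 0.0535, limma). With TPM the calls of Ctsc (-0.42) and Ctsz (-0.21) were lost, and with quantile normalization that of Atp6ap2 (-0.32). Ctsc was at 5.68, 8.24 and 7.63 FPKM in D_DXZ and at 3.94, 2.62 and 1.08 FPKM in D_MgHCF, and these libraries did not overlap.

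**Figure D3:**
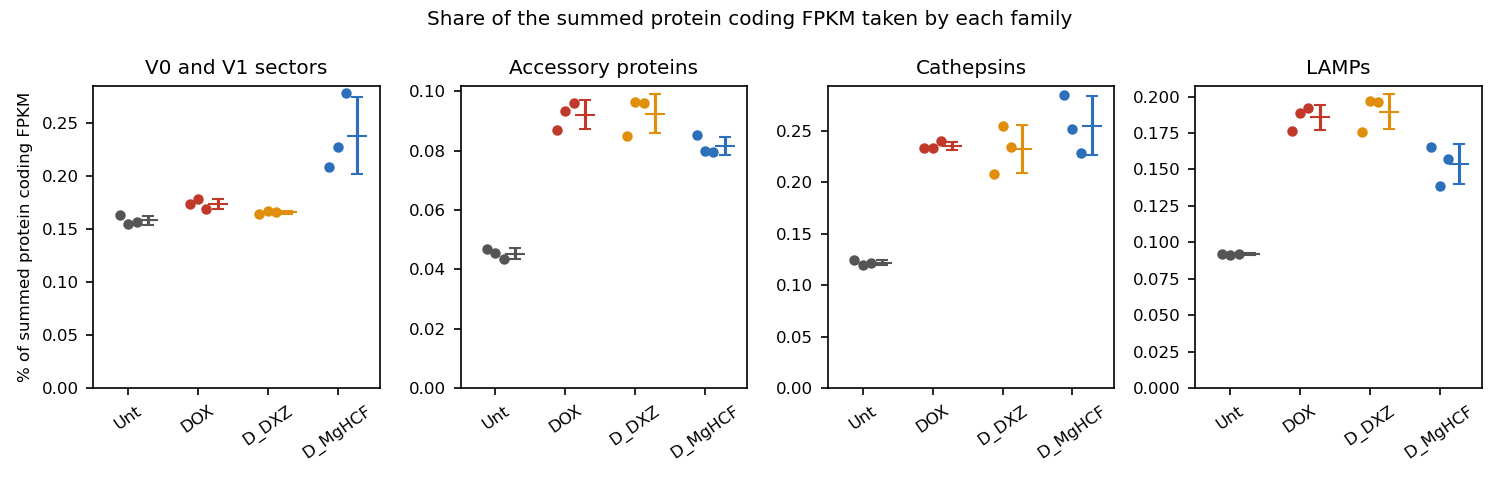
Percent of the summed protein coding FPKM taken by the V0 and V1 sectors, the accessory proteins, the cathepsins and the LAMPs, with a point for each of 3 libraries per group and a bar with whiskers for the mean and SD. The vertical axes start at 0. Accessory, cathepsin and LAMP transcripts take a larger share in every treated library than in Unt, while the pump share of DOX and D_DXZ is only slightly above that of Unt.

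Ratios within a library do not depend on the library factor and were therefore added, after the values were seen and without a test. The cathepsins took 0.122 ± 0.0022% of the protein coding FPKM in Unt, 0.235 ± 0.0038% in DOX, 0.233 ± 0.023% in D_DXZ and 0.255 ± 0.029% in D_MgHCF (SD, n = 3). The LAMPs took 0.0918 ± 0.00059%, 0.186 ± 0.0084%, 0.190 ± 0.012% and 0.154 ± 0.014%. Both families thus lay above Unt in all 9 treated libraries. The 22 genes of the pump sectors took 0.158 ± 0.0045% in Unt, 0.173 ± 0.0043% in DOX and 0.166 ± 0.0016% in D_DXZ. In D_MgHCF they took 0.208, 0.227 and 0.279%, above each of the other 9 libraries, with library 3 the highest.

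The balance of subunits within the pump also differed between groups. Subunits A and B are built into the V1 ring in equal number, and the ratio of Atp6v1b2 to Atp6v1a transcripts was 0.487, 0.496 and 0.570 in Unt. In DOX the ratio was 0.138, 0.137 and 0.112, and in D_DXZ 0.175, 0.115 and 0.145. All 6 libraries were far under the Unt range. In D_MgHCF the ratio was 0.192, 0.321 and 0.4996, so that the libraries spread from near the D_DXZ values to the Unt range. Atp6v1d, of the central stalk, had a ratio to Atp6v1a of 0.296 ± 0.0079 in Unt, 0.139 ± 0.022 in DOX, 0.132 ± 0.010 in D_DXZ and 0.152, 0.177 and 0.322 in D_MgHCF. The DOX and D_DXZ libraries and D_MgHCF libraries 1 and 2 were below the Unt range, and D_MgHCF library 3 was above it. The ratio of Atp6v1e1 to Atp6v1a was lowest in Unt, at 0.469 ± 0.019, and was 0.659 ± 0.044 in DOX, 0.679 ± 0.0035 in D_DXZ and 0.603 ± 0.055 in D_MgHCF. Transcript ratios say nothing of the ratio of the proteins.

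**Figure D4:**
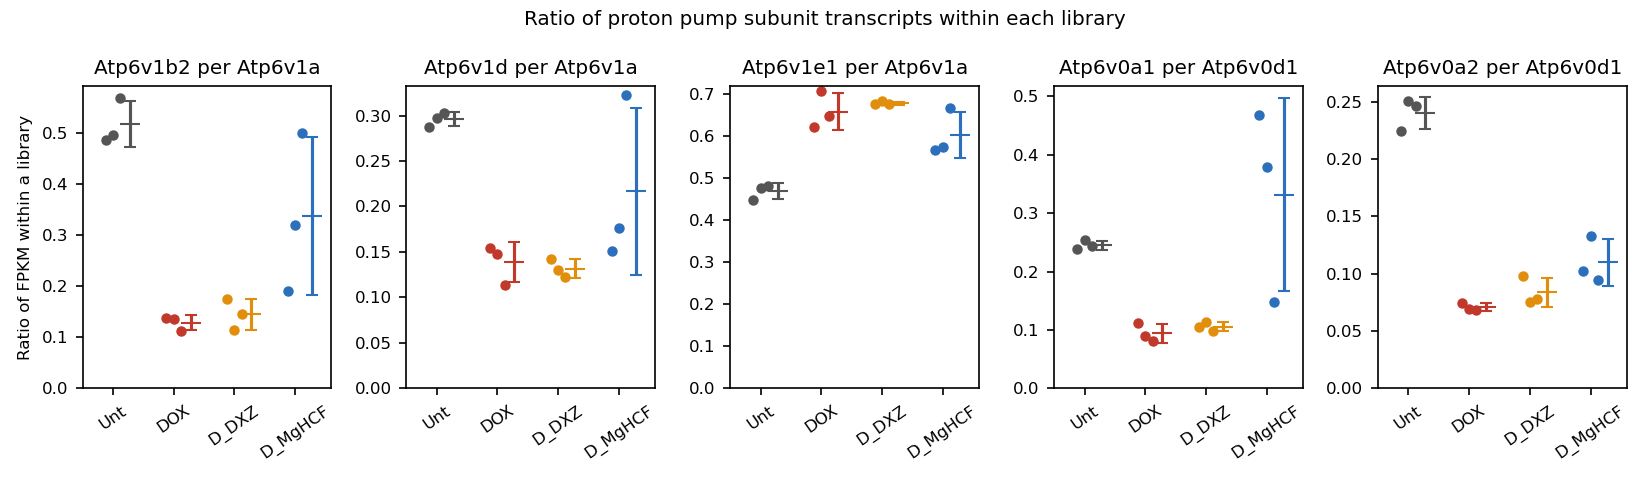
Ratio of FPKM of Atp6v1b2, Atp6v1d and Atp6v1e1 to Atp6v1a, and of Atp6v0a1 and Atp6v0a2 to Atp6v0d1, within each library, with a point per library (3 per group) and a bar with whiskers for the mean and SD. The vertical axes start at 0. The ratios of Atp6v1b2, Atp6v1d, Atp6v0a1 and Atp6v0a2 are lower in DOX and D_DXZ than in Unt, that of Atp6v1e1 is higher, and the D_MgHCF libraries spread widely for Atp6v1b2, Atp6v1d and Atp6v0a1.

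Subunit a is encoded by several genes, and their shares of the summed subunit a transcripts differed between groups. Tcirg1, the isoform known from osteoclasts and lysosomes, made up 58.0 ± 1.03% in Unt and 71.4 ± 0.58% in DOX. Atp6v0a1 made up 21.2 ± 0.46% in Unt and 16.2 ± 0.86% in DOX, and Atp6v0a2 20.8 ± 0.79% and 12.3 ± 0.86%. These ranges did not overlap for any of the 3 genes (exact permutation p = 0.1, the smallest possible, adjusted p = 0.204). In D_MgHCF the share of Atp6v0a1 was 44.5, 36.7 and 19.0%, and that of Tcirg1 45.6, 50.3 and 68.8%. Libraries 1 and 2 thus carried more Atp6v0a1 than any library of another group, whereas library 3 was under the Unt range of 20.7 to 21.5%. Atp6v0a4, the kidney isoform, was at most 0.107 FPKM in any library.

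The cathepsins kept their order of abundance in DOX. Ctsd made up 29.03 ± 0.99% of all cathepsin transcripts in Unt and 31.8 ± 0.75% in DOX, and Ctsb 25.9 ± 0.29% and 26.8 ± 0.43%. The DOX libraries of Ctsd and Ctsb lay just above the Unt libraries in these shares. In D_MgHCF the share of Ctsb was 19.5 ± 1.98%, below every library of the other groups. Ctsl made up 31.0, 33.8 and 17.0% in D_MgHCF, against 16.8 ± 0.91% in Unt and 18.5 ± 0.44% in DOX, so that the higher share was carried by libraries 1 and 2.

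Members with and without CACGTG near the start overlapped in the size of their difference. In DOX against Unt, 8 of 8 such members were higher, with a median of 1.96 on the log2 scale and a range from 0.93 to 2.25. Of the 13 members with a window but no match, 12 were higher, with a median of 1.53 and a range from 0.23 to 2.31. The ranges overlapped over most of their length. Of all 25044 genes tested, 18.6% were higher in this comparison. In D_MgHCF against Unt 8 of 8 members with a match were higher and 8 of 13 without, beside 24.3% of all genes tested. The medians were 0.86 with and 0.66 without a match. The ranges, 0.615 to 1.77 with and -0.09 to 1.17 without a match, overlapped here too. These counts are on the deposited values, where abundant genes were mostly higher in DOX than in Unt. The split was not made with an equal coding sum.

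Other lysosomal genes, in lists chosen with earlier results known, give the setting for these members. Their counts stand beside the shares of all 25044 genes tested. In DOX against Unt 18.6% of all genes were higher and 19.9% lower, or 5.97% and 36.9% with an equal coding sum. In D_MgHCF against Unt 24.3% were higher and 15.7% lower, or 27.4% and 19.2% with an equal coding sum. In D_MgHCF against DOX 31.4% were higher and 20.1% lower, or 50.7% and 7.99% with an equal coding sum. Of 35 other hydrolases and their activators, 30 rose and 1 fell in DOX against Unt on the deposited values, and 21 rose and 3 fell with an equal coding sum. Asah1, acid ceramidase, showed the largest rise at 2.19 ± 0.18, and Pla2g15, a lysosomal phospholipase, the fall at -1.19 ± 0.15. In D_MgHCF against Unt 20 of the 35 were higher and 1 was lower, and 21 and 1 with an equal coding sum. Against DOX 24 were lower and 3 higher on the deposited values and 6 lower and 15 higher with an equal coding sum. The largest rise there was that of Idua at 1.07, which cleaves dermatan and heparan sulfate, and the largest fall that of Aga at -1.90, which cleaves asparagine-linked sugars.

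In the list kept for cathepsin inhibitors, most genes were higher in DOX. Of its 6 genes, Cst6 and Serping1 were at most 0.103 FPKM in any library, and Serping1 is not known as a cathepsin inhibitor. In DOX 4 of the 6 rose and none fell, beside 18.6% of all genes tested that were higher and 19.9% that were lower. Cst3, the secreted inhibitor cystatin C, rose most, at 116, 116 and 129.5 FPKM in Unt and 524.5, 673 and 675 FPKM in DOX. Its log2 difference of 2.35 ± 0.25 may be set beside 2.17 for Ctsb and 2.25 for Ctsl, which it inhibits, and was 1.16 with an equal coding sum. Against DOX 4 of the 6 were lower in D_MgHCF, most of all Serpinb6a at -1.94. For these 6 genes an equal coding sum gave 3 higher and none lower in DOX against Unt, and 2 lower and none higher in D_MgHCF against DOX, with the median of the latter moving from -1.15 to -0.13. All 9 genes for sorting enzymes to the lysosome rose in DOX on the deposited values, with Nagpa highest at 1.61, but with an equal coding sum only 1 was called higher. All 9 were lower in D_MgHCF than in DOX on the deposited values, with Gnptab at -1.09, and none was with an equal coding sum.

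The assembly factors of the pump were called in both directions. Of 11 genes in this list, which includes Tcirg1, 4 rose and 3 fell in DOX, and with an equal coding sum 1 rose and 8 fell. Among all genes tested, 18.6% were higher and 19.9% lower in DOX, or 5.97% and 36.9% with an equal coding sum. Vma21, which guides assembly of V0 in the endoplasmic reticulum, was at 6.18, 6.19 and 5.49 FPKM in Unt, 19.9, 30.5 and 29.5 FPKM in DOX and 6.10, 5.79 and 4.29 FPKM in D_MgHCF. The D_MgHCF libraries were at or below the Unt level and far below DOX, a log2 difference from DOX of -2.10 ± 0.17 on the deposited values and of -1.06 with an equal coding sum. Wdr7, a partner of the pump in synaptic vesicles, fell by 1.10 in DOX. Tldc1 rose by 1.09 in D_MgHCF against DOX. Of the 23 membrane proteins and transporters, 11 rose and 3 fell in DOX, from Npc2 (2.15), which carries cholesterol, to Tmem175 (-1.0), a proton and potassium channel. After scaling to an equal coding sum 3 rose and 11 fell. Against DOX, D_MgHCF cells had 4 of these higher and 8 lower, from Ctns (1.60), the cystine exporter, to Cd63 (-1.84), whereas with an equal coding sum 17 were higher and 2 lower. Of the 17 genes of the mTORC1 platform, 6 rose and 5 fell in DOX, from Lamtor4 (1.66) to Fnip2 (-1.13), and with an equal coding sum 2 rose and 10 fell. Among all genes with a mean of at least 1 FPKM, 36.7% were higher in DOX on the deposited values. In D_MgHCF against DOX 5 of the 17 rose and 9 fell, from Fnip1 (1.27) to Lamtor1 (-1.94), and with an equal coding sum 11 rose and 2 fell. Of all genes tested 31.4% were higher and 20.1% lower there, or 50.7% and 7.99% with an equal coding sum.

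The TFEB family, whose members are known to bind CACGTG, was lower in DOX. All 4 tested genes of this list fell in DOX against Unt on the deposited values and with an equal coding sum, beside 19.9% and 36.9% of all genes tested. The list also holds Zkscan3, a repressor of the same genes, so the fall does not concern activators alone. Tfeb was at 3.597, 3.75 and 3.95 FPKM in Unt and 1.43, 1.06 and 0.747 FPKM in DOX, a log2 difference of -1.21 ± 0.27. It was at 1.04, 0.660 and 0.647 FPKM in D_DXZ and at 2.20, 2.86 and 6.41 FPKM in D_MgHCF, where it was called higher than DOX at 1.13 ± 0.27. Mitf was at 1.17, 1.30 and 1.40 FPKM in Unt and 0.191, 0.126 and 0.209 FPKM in DOX, with no overlap. These are levels of mRNA, and the activity of the factors depends on their phosphorylation and place in the cell, which was not measured here.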

How the data were processed

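RNA of 12 libraries of H9c2 cells was sequenced as 150-base read pairs (poly(A) selected, NEBNext Ultra, NovaSeq). The authors deposited 1 table of FPKM per gene on mouse genes (GRCm38), and the submitters' processing notes name HISAT2 2.0.5. The counter, the annotation release and the use of strand are not given in the sources used here. A deposited gene length for each gene allowed whole reads to be recovered from the FPKM, and 100% of values were within 0.1 of a whole number. All 12 value columns were used and 0 were left unused. Depth limits the precision of low genes, and floors of 3 reads cover counting error only.

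Differences were tested with limma 3.58.1 (R 4.3.3, trend) on log2(FPKM + 1), so that fold changes of low genes are understated. All 4 groups entered 1 fit of the 25044 genes that were above 0 FPKM in 3 or more libraries, and a gene was called at a Benjamini-Hochberg adjusted p under 0.05 over all of them. SE is limma's. Shares within a family were compared by exact two-sided permutation tests. The code was tested on simulated data. The members and lists were chosen with earlier results of these data known.

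Values in every library are given for the 3 largest rises and falls among called members with a mean of at least 1 FPKM in the higher group, for the most abundant member of each class, and for Lamp1, Lamp2, Atp6ap1, Atp6ap2, Ctsb, Ctsd and Ctsl. Of each list of other lysosomal genes, the largest rise and fall are named. Further members and genes (Atp6v1a, Atp6v1b2, Atp6v0a2, Atp6v0c, Atp6v1c1, Atp6v1h, Vma21, Cst3, Tfeb and Mitf among them) were described after their values were seen. Alternatives were another pseudocount (0.1), other filters, thresholds and scalings (TPM, an equal sum over protein coding genes, quantile normalization), a replicate block, fits of 2 groups and leaving out each library. voom on the recovered reads, and Atp6v0c with its pseudogene, were added after seeing the data. Promoter windows came from RefSeq (GRCm38.p6), and BLAST 2.17.0 was used to look for copies of the members elsewhere.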

Additional observations from a re-analysis of the deposited data

Results flagged for a closer look

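The row of the processed pseudogene Gm15487 lies outside the rule for the members and is nearly identical to Atp6v0c. It was picked out because a signal appeared there above the level of the untreated samples. Its mean was 85.8 FPKM in Unt, 333.9 FPKM in DOX, 306.8 FPKM in D_DXZ and 192.4 FPKM in D_MgHCF. The log2 difference from Unt was 1.94 ± 0.19 in DOX, 1.81 ± 0.19 in D_DXZ and 1.14 ± 0.19 in D_MgHCF (limma, deposited values). The row was picked out by these same values, so the differences describe it and lend it no further weight. The coding sum relative to Unt was 2.29 in DOX, 1.97 in D_DXZ and 1.07 in D_MgHCF, and no difference with an equal coding sum is given for this row. Whether these reads came from Atp6v0c was not tested and cannot be told apart in this file.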

How the results depend on the processing

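Equal replicate numbers carry no shared culture or batch in the labels. Over 18 pairs of same-numbered libraries, the correlations of deviations ranged from -0.39 to 0.39 and 2 were over 0.1. With the replicate number as a replicate block, members higher and lower were 24 and 0 (DOX vs Unt), 21 and 0 (D_DXZ vs Unt), 19 and 0 (D_MgHCF vs Unt), 0 and 0 (D_DXZ vs DOX), 1 and 19 (D_MgHCF vs DOX) and 2 and 16 (D_MgHCF vs D_DXZ).

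The scaling moved the counts in 4 of the 6 comparisons. Members higher in DOX vs Unt were 12 with TPM and 15 with an equal coding sum, and members lower were 5, 5 and 1 with TPM, an equal coding sum and quantile normalization. In D_DXZ vs Unt 12 were higher with TPM, and 5, 5 and 1 were lower, beside 916 of all genes higher and 9812, 8870 and 3661 lower. In D_MgHCF vs DOX 16, 13 and 10 were higher and 2, 6 and 8 lower. In D_MgHCF vs D_DXZ 18, 15 and 10 members were higher and 1, 5 and 8 lower. Of all genes, 12531, 11723 and 4587 were higher there and 1524, 2060 and 4840 lower. A fit of the 2 groups only gave 1 lower member in DOX vs Unt and in D_DXZ vs Unt, and 1 higher in D_MgHCF vs DOX and vs D_DXZ, as did no filter in the last 2. Requiring 2-fold left 6 higher in D_MgHCF vs Unt, 0 higher and 11 lower in D_MgHCF vs DOX, and 0 higher and 9 lower in D_MgHCF vs D_DXZ. An unadjusted p under 0.05 gave 2 lower in D_DXZ vs DOX and 4 higher in D_MgHCF vs DOX. In the latter comparison voom gave 1 higher member, beside 7253 of all genes. For the fits of 2 groups, no filter, the 2-fold threshold and the unadjusted p, no share of all genes is given here.

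Leaving out each library gave 22 to 26 higher and 0 to 1 lower (DOX vs Unt), 18 to 24 and 0 to 1 (D_DXZ vs Unt), 16 to 23 and 0 to 2 (D_MgHCF vs Unt), 0 to 0 and 0 to 0 (D_DXZ vs DOX), 1 to 4 and 17 to 22 (D_MgHCF vs DOX) and 1 to 4 and 15 to 18 (D_MgHCF vs D_DXZ). The shares of all genes called in these fits are not given.

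Over the called differences of the named members, the scalings reversed 39 values, kept 132 calls and lost 33, and the other settings kept 1177 and lost 53. The reversals were all log2 differences with other scalings, given as TPM, equal coding sum and quantile normalization where 3 values stand.
In D_MgHCF vs DOX they were Atp6ap1 0.071 (TPM) and 0.335 (quantile), Atp6v0d1 0.432, 0.310 and 0.455, Atp6v1e1 0.316, 0.196 and 0.028, Atp6v1g1 0.806, 0.683 and 1.045, Ctsa 0.393, 0.270 and 0.437, Ctsd 0.242, 0.117 and 0.556, Lamp1 0.275 (quantile). In D_MgHCF vs D_DXZ they were Atp6ap1 0.129 (TPM) and 0.311 (quantile), Atp6v1e1 0.368, 0.207 and 0.036, Ctsa 0.509, 0.344 and 0.480, Ctsd 0.332, 0.164 and 0.555, Lamp1 0.221 (quantile). In DOX vs Unt they were Atp6v1g1 -0.409, -0.236 and -0.566, Atp6v1g2 -0.201 (TPM) and -0.109 (equal coding sum). In D_DXZ vs Unt they were Atp6v1g1 -0.606, -0.390 and -0.669, Atp6v1g2 -0.093 (TPM).
The cause of each loss of a call was not tested.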
